A study of Zea mays with 36 samples.

Results

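The transcripts of 3 defence-related genes of maize were followed across every slide of a comparison between the shoot apical meristem and the seedling: pr5, prp2 and opr5. Their probes were found by gene name alone. These were all probes whose annotated gene carries one of these names as symbol or synonym, in any case, on the platform or in the current gene table. This gave 8 of the 30329 probes with values, and 3 of the 740 genes that could be named. Of the 2 slide sets, the larger (18302 probes with values) held 1 probe for each gene, and the smaller (12027) held 1 for pr5, 2 for prp2 and 2 for opr5. The platform listed opr5 under its own symbol, and the names pr5 and prp2 came through the current gene table.

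All RNA came from maize of the inbred line B73 at 14 days. One side of each comparison was the shoot apical meristem (SAM), the dome of dividing cells that forms leaves and stem, taken by laser capture with the youngest primordia (P0 and P1) as a pool of at least 6 meristems. The other side was a pool of the above-ground parts of 6 seedlings from the same batch of plants, so it contains some meristem tissue as well. Each of 6 replicate pairs was hybridised to 1 slide of each of 2 cDNA slide sets that carry different clones, 12 slides in all. SAM RNA carried Cy3 in replicates 1, 3 and 5 and Cy5 in replicates 2, 4 and 6.

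Pathogenesis-related proteins are a mixed group of plant proteins, many of them secreted, that accumulate after infection or stress and are often present in healthy mature tissue too. pr5 belongs to the thaumatin-like family, some of whose members inhibit fungal growth. prp2 is named as a pathogenesis-related gene, and its protein class is not given in the tables used here. opr5 belongs to the oxo-phytodienoate reductases, flavin enzymes that act on oxylipins; one branch of the family makes the precursor of the wound hormone jasmonate, and other members act on related molecules.

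Values are log2 ratios per slide, the mean of 3 scans of the slide, named low, medium and high after their laser settings. Negative values are called the seedling side and positive ones the SAM side, a direction that is likely only. It rests on leaf photosynthesis genes, of which 7 of 7 lay at negative values on the larger set (−10.01 to −3.47) and 8 of 8 on the smaller (−7.03 to −2.56). That list is not all of the photosynthesis genes: Cab-m7 stood at 1.09 on the larger set and −4.28 on the smaller, and OEE3 at 0.26 and −6.07, both named here after their values were seen. Meristem genes lay at positive values, 5 of 5 on the larger set (0.30 to 6.77) and 6 of 6 on the smaller (1.52 to 3.58). Of the epidermis markers 2 of 3 and 1 of 3 passed on the SAM side, and the vascular and wall markers (2 of 2 and 1 of 1) all passed at negative values. The RNA of the tissues was isolated by unlike methods, whose effect cannot be told apart from that of tissue, and in such bulk RNA fewer cells of a type cannot be told apart from less RNA per cell. One source label, that of the larger set's replicate 4 at the high setting, gives seedling for both dyes, and the sample name, with SAM in Cy5, was used instead. Arrays give no read depth, and the number of slides limits the precision.

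All 3 genes lay on the seedling side on all 12 slides, and each passed the test in both sets. Averaged over a gene's probes, pr5 stood at −10.10 ± 3.56 (SD, n = 6) on the larger set and −1.50 ± 0.41 (SD, n = 6) on the smaller. opr5 stood at −8.41 ± 2.04 (SD, n = 6) and −4.87 ± 0.96 (SD, n = 6), and prp2 at −3.03 ± 0.59 (SD, n = 6) and −2.86 ± 0.43 (SD, n = 6). The test was limma's moderated test of the ratio against 0 with a dye term, with Benjamini-Hochberg adjustment over every named gene of the set, at a threshold of 0.05. Adjusted p-values were 0.000128 and 2.09e-05 for pr5, 8.09e-05 and 2.32e-05 for opr5, and 5.81e-06 and 1.34e-06 for prp2. The seedling side is common among named genes: 45.2% of the 582 genes of the larger set and 45.7% of the 455 of the smaller passed on it. From the seedling end, pr5 ranked 2 of 582 on the larger set and 101 of 455 on the smaller, opr5 ranked 8 and 23, and prp2 ranked 57 and 57.

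**Figure D1:**
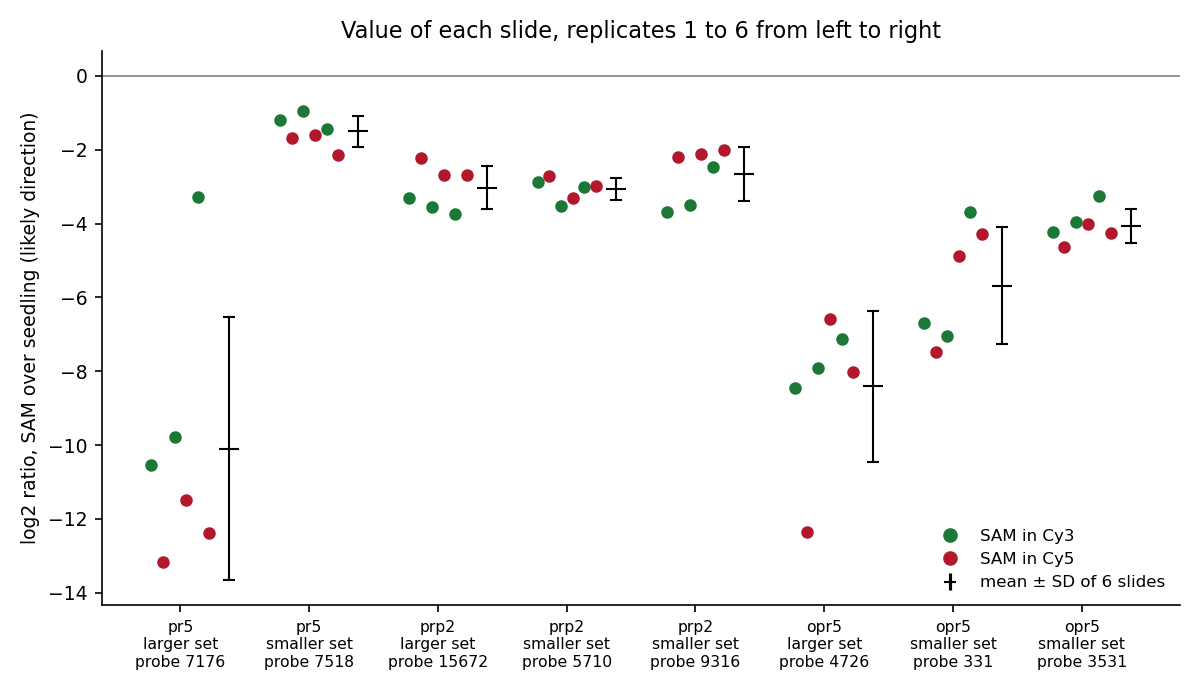
Log2 ratio of SAM over seedling (vertical axis) on each slide for the 8 probes of pr5, prp2 and opr5, with 1 point per slide coloured by the dye that SAM RNA carried and a bar for the mean ± SD of 6 slides. All points lie below 0; the larger-set pr5 probe holds the lowest mean (−10.10) and 1 slide far above its others (−3.28), while the smaller-set pr5 probe stays between −2.13 and −0.96.

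The pr5 transcript, for the thaumatin-like protein, gave its lowest values on the larger set. Its probe there (7176) read −10.54, −13.16, −9.77, −11.47, −3.28 and −12.38 in replicates 1 to 6. Replicate 5 stood apart from the other 5 slides, which lay between −13.16 and −9.77, yet it too was on the seedling side. The mean of −10.10 had a standard error of 0.91 (adjusted p over all probes by limma 0.000110), and the probe ranked 15 of 18302 from the seedling end. The mean of the other 5 slides without replicate 5 was −11.46, and the fit with the dye term gave −11.25. No fold is given, because single scans reached −14.79, near the 16 log2 units that a 16-bit scanner spans (the scanner range is not given in the sources used here), and whether the SAM signal was above background was not tested. As a background, 31.0% of the probes of the larger set and 31.2% of those of the smaller passed on the seedling side.

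On the smaller set the pr5 probe (7518) read −1.19, −1.69, −0.96, −1.61, −1.43 and −2.13 in replicates 1 to 6. These slides formed 1 narrow group, and none reached the level of even the least extreme slide of the larger set. The mean of −1.50 is 2.83-fold more signal on the seedling side (standard error 0.11, adjusted p by limma 6.31e-05), at rank 1533 of 12027. Probes annotated to the same gene thus gave very different ratios for the same RNA pairs.

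The prp2 transcript was close to even across probes and sets. The larger-set probe (15672) read −3.29, −2.22, −3.55, −2.67, −3.73 and −2.67 in replicates 1 to 6, 8.14-fold more signal on the seedling side (adjusted p by limma 6.06e-06). Its slides split by dye, with the SAM-in-Cy3 replicates lower than the SAM-in-Cy5 replicates and no overlap between them. One smaller-set probe (5710) read −2.88, −2.72, −3.52, −3.31, −3.01 and −2.97, with a mean of −3.07 ± 0.29 (SD, n = 6), 8.39-fold (adjusted p 7.84e-06). This was the smallest SD among the 8 probes, and its dye orientations overlapped. The other (9316) read −3.69, −2.20, −3.49, −2.13, −2.46 and −2.00, with a mean of −2.66 ± 0.74 (SD, n = 6), 6.32-fold (adjusted p 3.88e-05). Here replicates 1 and 3 were the lowest slides, 1 log2 unit or more below the others.

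The opr5 transcript, for the oxo-phytodienoate reductase, was far on the seedling side on every probe. The larger-set probe (4726) read −8.45, −12.34, −7.92, −6.59, −7.13 and −8.02 in replicates 1 to 6, with a mean of −8.41 (standard error 0.69, adjusted p by limma 7.24e-05) at rank 72 of 18302. Replicate 2 stood apart below the other 5 slides, whose mean was −7.62 (−7.57 by the fit with the dye term). Single scans reached −14.02 on this probe and −11.68 on probe 331, so no fold is given for either. One smaller-set probe (331) read −6.69, −7.48, −7.03, −4.89, −3.70 and −4.29, with a mean of −5.68 ± 1.59 (SD, n = 6, adjusted p 0.000300). Its replicates 1, 2 and 3 were lower than its replicates 4, 5 and 6. The other (3531) read −4.23, −4.63, −3.97, −4.00, −3.26 and −4.26, with a mean of −4.06 ± 0.46 (SD, n = 6), 16.6-fold (adjusted p 6.43e-06). Replicate 2 was the lowest slide for opr5 on all 3 probes, and replicate 5 was the highest on both probes of the smaller set. The same 6 RNA pairs lie behind these probes, so the probes are not independent samples.

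Some of these values differed by dye orientation, as was common over all probes. On the pr5 probes the slides with SAM in Cy5 were lower than those with SAM in Cy3 in both sets, at means of −12.34 against −7.86 on the larger and −1.81 against −1.19 on the smaller, with no overlap. On the prp2 probes 15672 and 9316 the order was opposite, with SAM in Cy3 lower, at −3.53 against −2.52 and −3.21 against −2.11, also with no overlap. For opr5 the orientations overlapped on all 3 probes. Slides of the orientations did not overlap for 2 of 3 probes on the larger set and 2 of 5 on the smaller, where the shares over all probes were 42.8% and 35.6%. By limma's dye coefficient 1 of 3 probes passed on the larger set, prp2 probe 15672 (adjusted p 0.0484), where 12.7% of all probes did, and its call was lost at the gene level (adjusted p 0.0547). On the smaller set 0 of 5 passed (2 of 5 at an unadjusted p under 0.05), where 8.41% of all probes did. The dye coefficients of pr5 probes 7176 and 7518 did not pass by limma (adjusted p 0.1317 and 0.1345). So few probes do not show more dye splits here than over all probes. Because each replicate had the same orientation in both sets, a shared dye effect and a shared difference between the RNA pools cannot be told apart.

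Some pr5 and opr5 values also depended on the scan from which they were read. On a slide the 3 scans of a probe differed by a median of 0.25 on the larger set and 0.26 on the smaller over all probes. The median spread was 3.21 for pr5 probe 7176, 5.41 for opr5 probe 4726 and 3.67 for opr5 probe 331, larger than for 93.6%, 99.0% and 95.6% of the probes of their sets. It was 0.36 for pr5 probe 7518, 0.30 and 0.31 for prp2 probes 15672 and 5710, 0.57 for prp2 probe 9316 and 0.98 for opr5 probe 3531.

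On opr5 probe 4726 the low scans read −11.89, −10.25, −10.90, −10.09, −11.78 and −10.78 in replicates 1 to 6, a mean of −10.95 ± 0.75 (SD, n = 6). The medium and high scans had means of −7.38 ± 2.91 and −6.90 ± 3.59 (SD, n = 6). The high scans lay above the low ones on 5 of 6 slides. The exception was replicate 2, whose scans read −10.25, −12.76 and −14.02 from low to high, and this slide sets the lowest value of the probe.

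On opr5 probe 331 the low scans of replicates 1, 2 and 3 read −10.90, −11.68 and −11.04, and those of replicates 4, 5 and 6 read −4.85, −4.29 and −4.38. Over the 6 slides the means were −7.86 ± 3.68 at low, −4.60 ± 0.90 at medium and −4.58 ± 0.67 at high (SD, n = 6). The gap between replicates 1 to 3 and 4 to 6 on this probe thus lay mainly in the low scan.

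On pr5 probe 7176 the order of the low and high scans split by dye, a pattern seen after the values were known. How many of all probes split in this way was not counted. The means of probe 7176 were −10.10 ± 2.75 at low, −10.90 ± 4.28 at medium and −9.29 ± 4.69 at high (SD, n = 6). The high scan lay above the low one on the 3 slides with SAM in Cy3 and below it on the 3 with SAM in Cy5. By limma the mean difference between its high and low scans did not pass (p 0.256, adjusted p 0.507). The split by dye itself was not tested. Replicate 5, the slide that stood apart, read −4.65, −2.24 and −2.94, so it was the least extreme slide in each scan. Replicates 1 and 3 went from −12.41 and −11.14 in the low scan to −7.42 and −5.68 in the high one. Replicates 2, 4 and 6 went the other way, from −11.19, −10.46 and −10.78 to −14.79, −11.35 and −13.60.

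Ratios below −9 occurred in 13 of the 18 scans of pr5 probe 7176, in 8 of 18 for opr5 probe 4726, in 3 of 18 for opr5 probe 331 and in none of the scans of the other 5 probes. The value of −9 was chosen after the values were seen. Such ratios were more frequent in low scans generally: per slide of the larger set a median of 219 probes of 18302 lay below −9 at low, 63.5 at medium and 60 at high. On the smaller set the medians were 68, 9 and 17.5 of 12027. For prp2 probe 9316 the low scans of replicates 1 and 3, at −4.78 and −5.61, stood apart from the other 4 low scans (−2.66 to −1.92). By limma the difference between high and low scans passed for 0 of 3 probes on the larger set (2 of 3 at an unadjusted p under 0.05) and 0 of 5 on the smaller (2 of 5), where 2.54% and 0.283% of all probes passed. Any part of channel floors, saturation or background in these values was not tested.

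**Figure D2:**
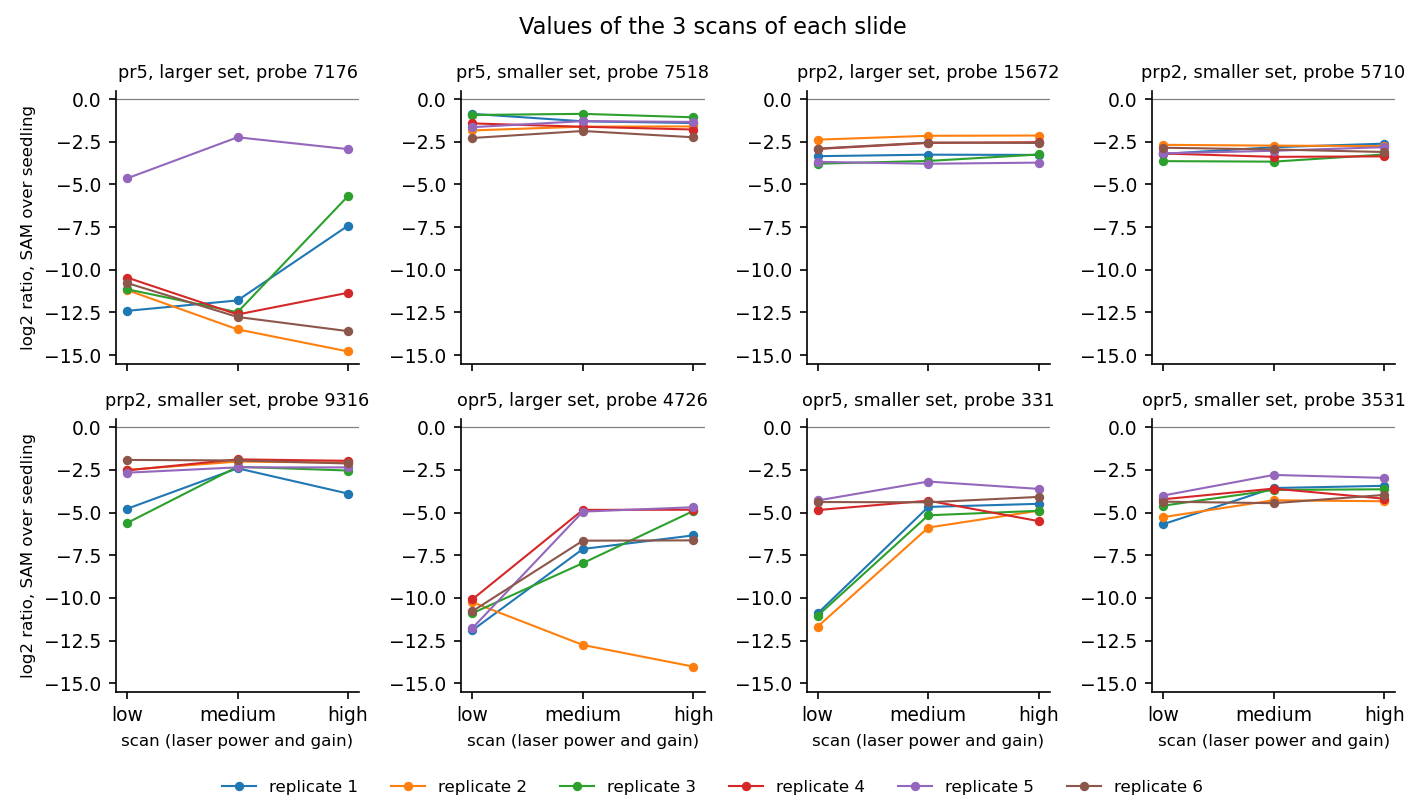
Log2 ratio of SAM over seedling (vertical axis) in the low, medium and high scan of each slide (horizontal axis) for the 8 probes, with 1 line per slide. The lines of pr5 probe 7176 span several log2 units and end higher than they start in replicates 1, 3 and 5 and lower in 2, 4 and 6, those of opr5 probe 4726 rise from low to high except in replicate 2, and those of pr5 probe 7518 and prp2 probes 15672 and 5710 stay nearly flat.

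The sets were then compared directly, over the 297 genes named in both and with slide set and dye as terms in limma. The fit had no replicate block, although the slides of both sets share their RNA pairs. With the block the adjusted p by limma was 0.00160 for pr5, 0.00218 for opr5 and 0.553 for prp2, and the values that follow are those without it. pr5 was lower on the larger set by a difference of −8.60 (standard error 1.15, 95% interval −11.12 to −6.08, adjusted p 0.000120) and in 6 of 6 replicates. The replicate differences were −9.35, −11.47, −8.81, −9.86, −1.85 and −10.25, so replicate 5 differed least. This placed pr5 at rank 2 of 297, after gst31 at −8.71. opr5 was lower on the larger set by a difference of −3.54 (standard error 0.85, 95% interval −5.40 to −1.68, adjusted p 0.00764), also in 6 of 6 replicates. From the low, medium and high scan alone the opr5 difference was −4.67, −3.22 and −2.74, and the last did not pass (adjusted p 0.136), nor did the mean of the medium and high scans (−2.98, adjusted p 0.0700). For prp2 the difference was −0.16 (standard error 0.17, 95% interval −0.53 to 0.21, adjusted p 0.498), which does not show that the sets are equal. Of the 297 genes, 19.5% passed as lower on the larger set, against 2 of the 3 genes here. The clones of the sets differ, and their sequences were not analysed here, so probe and slide set cannot be told apart.

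**Figure D3:**
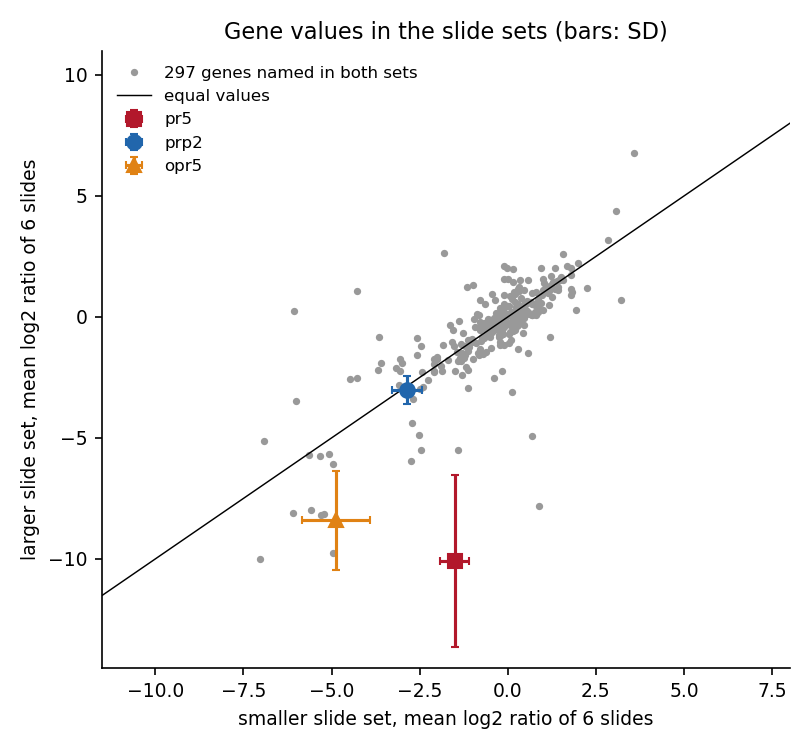
Mean log2 ratio of SAM over seedling on the larger slide set (vertical axis) against the smaller (horizontal axis) for the 297 genes named in both (grey), with pr5, prp2 and opr5 coloured, bars for the SD of 6 slides and a line of equal values. prp2 lies close to the line at −2.86 and −3.03, opr5 lies below it, and pr5 lies far below it at −1.50 and −10.10.

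Defence-related genes, pr5, prp2 and opr5 among them, were counted over 4 lists (pathogenesis-related proteins, oxylipins and jasmonate, wound response and proteinase inhibitors, benzoxazinoids). The wound and benzoxazinoid lists hold none of the 3 genes. With the 3 genes included, 8 of 11 measured list genes passed on the seedling side on the larger set and 0 on the SAM side by the mean of their probes (also 0 at an unadjusted limma p under 0.05), with 3 not passing; without replicate 4, 1 list gene passed on the SAM side there. Of their single probes on that set, 3 passed on the SAM side, 1 each of opr7, cc4 and igl1. On the smaller set 8 of 10 list genes passed at negative values, 1 passed at a positive value and the last did not pass. The median ratio of the lists, the 3 genes again included, was −1.75 and −2.51, against −0.24 and −0.22 over all named genes of the sets. The shares of all genes that passed were 45.2% and 45.7% on the seedling side and 27.1% and 27.9% on the SAM side. The 3 genes had passed before this count, so their part in it adds no support, and no share was computed without them. Of the other list genes on the larger set, chn1, opr8, cc7, cpi2 and psei1 passed on the seedling side. There opr7, cc4 and igl1 did not pass. On the smaller set aoc1, cpi2, wip1, glu1 and glu2 passed on the seedling side, igl1 on the SAM side, and bx6 did not pass.

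Among pathogenesis-related proteins, 3 of 3 genes on the larger set and 2 of 2 on the smaller passed at negative values, pr5 and prp2 among them. Of all named genes 45.2% and 45.7% did so, shares that also stand beside the counts of the other lists below. The only other gene was chn1, for a chitinase, an enzyme that cleaves fungal cell wall chitin. It stood at −5.63 ± 1.10 (SD, n = 6, adjusted p by limma 1.55e-05) on the larger set. chn1 lay between prp2 and pr5 there.

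Of the oxylipin genes 2 of 3 on the larger set, opr5 and opr8, passed at negative values, the latter at only −0.86 ± 0.47 (SD, n = 6, adjusted p 0.00401). opr7 stood at 0.14 ± 0.80 (SD, n = 6, adjusted p 0.412), with a mean of 0.81 where SAM carried Cy3 and −0.52 where it carried Cy5. Its probes gave −0.19 (adjusted p 0.545) and 0.47 (adjusted p 0.00876). opr7 and opr8 encode the reductases that maize uses to make jasmonate. On the smaller set opr5 and aoc1 passed on the seedling side, 2 of 2. aoc1, for allene oxide cyclase, which acts just before the reductase step of jasmonate synthesis, stood at −2.50 ± 0.74 (SD, n = 6, adjusted p 0.000102). The difference between opr5 and the other reductases is between probes of different genes and was not tested.

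Among wound and inhibitor genes, 3 of 4 passed at seedling-side values on the larger set and 2 of 2 did so on the smaller. The cystatin cpi2, an inhibitor of cysteine proteinases, stood at −1.75 ± 0.56 and −2.08 ± 0.19 (SD, n = 6 each), and psei1 at −1.45 ± 0.36 (SD, n = 6). wip1, for a wound-induced proteinase inhibitor, stood at −2.52 ± 0.56 (SD, n = 6) over 3 probes on the smaller set, which gave −0.79, −4.17 and −2.59. The fourth gene on the larger set, cc4, stood at −0.13 ± 0.14 (SD, n = 6, adjusted p 0.238), a mean over 4 probes that disagreed: 1 passed at 0.53 (adjusted p 0.0154) and another at −0.62 (adjusted p 0.0340). The cystatins (cc4, cc7, cpi2 and psei1) were matched by a word in their synonyms. Without them 5 genes of the lists passed on the seedling side on the larger set: pr5, prp2, opr5, chn1 and opr8. Fewer genes were then measured as well, with opr7 and igl1 not passing.

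Benzoxazinoids are defence metabolites of grasses stored as glucosides. On the smaller set 2 of the 4 genes on their list passed at negative values and 1, igl1, at a positive value. The beta-glucosidases glu1 and glu2, of the family that frees the stored compounds, stood at −5.42 ± 0.80 and −5.98 ± 0.55 (SD, n = 6) on the smaller set and passed on the seedling side. igl1, whose enzyme releases free indole, passed on the SAM side on the smaller set at 1.01 ± 0.31 (SD, n = 6, adjusted p 0.000338) and did not pass on the larger, at 0.29 ± 0.31 (adjusted p 0.0969), where its probes gave 0.02 and 0.55 (adjusted p 0.939 and 0.00928). bx6 stood at −0.03 ± 0.37 (SD, n = 6, adjusted p 0.822). opr7, cc4 and bx6 are named here because they did not pass, a choice made after their values were seen.

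**Figure D4:**
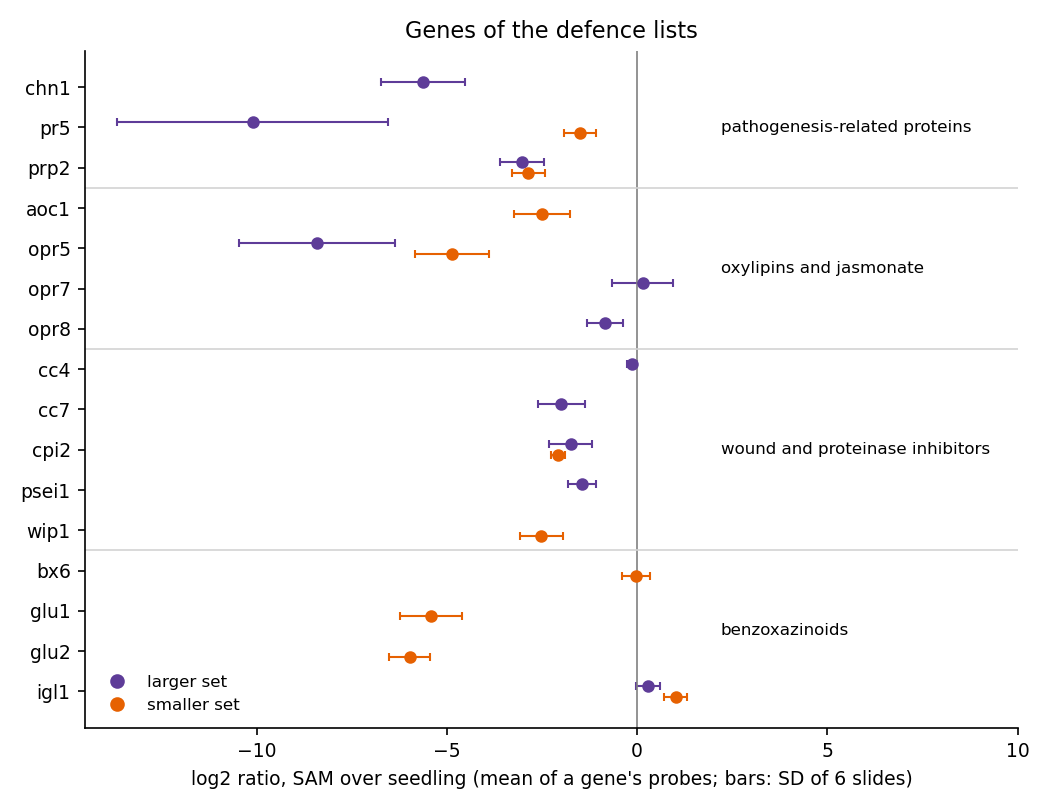
Mean log2 ratio of SAM over seedling (horizontal axis) for the genes of the 4 defence lists (vertical axis) on the larger and smaller slide set, with bars for the SD of 6 slides. pr5 and opr5 on the larger set are the lowest values (−10.10 and −8.41) with wide bars, the other values on the seedling side lie between −5.98 and 0, and igl1 has positive means on both sets (0.29 and 1.01).

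Of the other 296 genes named in both sets, the genes most like each of the 3 were found by the root mean square difference of the log2 ratio over the 12 slides. The nearest genes lie below the median of all genes by this selection, so the medians below give scale only. For prp2 these were pds1, for phytoene desaturase of carotenoid synthesis (0.57), and nbp1 (0.57), against a median of 2.91 over all genes. For opr5 they were a gene listed as LOC541622 (0.99) and piip1 (1.39), against a median of 6.84. LOC541622 stood at −8.18 and −5.29 on the sets and piip1 at −7.99 and −5.59, close to opr5 in both. For pr5 no gene was as near: the nearest were gst31, for a glutathione transferase (3.05), and amy5, for an amylase (3.21), against a median of 7.43. gst31 stood at −7.82 on the larger set and 0.90 on the smaller, amy5 at −9.76 and −4.95.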

How the data were processed

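Per the labels, SAM and seedling RNA were amplified with T7 polymerase, labelled and hybridised, and each slide was scanned 7 times, of which 3 scans are used here (36 scans in all). The deposited values are log ratios of the channels. Natural log was inferred for the deposited columns from repeated values: 156 pairs were spaced by 2 times ln of a whole number, against 5 pairs for log2 and 33 for log10. They were converted to log2. The sources used here do not give the normalization, background handling, numerator or software. Slides of opposite dye correlated at 0.598 to 0.861, so the deposited values were taken as already turned the same way.

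Of 19200 and 14080 spots, 898 and 2001 held no value, and 53 identical spots of the smaller set were counted as 1 probe, which left 18302 and 12027. No filter on low values was used, so all 8 probes passed. Of these probes 1787 and 753 had 1 gene name, 23 and 0 several, and the others none. Current symbols of 1477 and 728 probes were taken from the genes of Zm-B73-REFERENCE-NAM-5.0. The symbols and synonyms of these genes also served to find the probes of pr5 and prp2 and to match the lists. These genes carry no descriptions, so words were looked for in synonyms. Sequences are not used here.

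Scans were median-centred and averaged per slide. The ratio was fitted with dye orientation as covariate by lmFit and eBayes of limma 3.58.1 (R 4.3.3), and p-values were adjusted by Benjamini-Hochberg over a set's probes or genes, with 0.05 as threshold. The comparison of sets used all 12 slides without a replicate block. Same-numbered slides of the sets share their RNA pairs per the labels. Their deviations over the 297 genes correlated at 0.01 to 0.12, and at 0.05 to 0.26 with the dye effect removed. The highest correlation of a slide with one of another number, dye effect included, was 0.03 to 0.12. The genes, lists, rule for named genes (the 3 genes, per list the 2 genes of lowest adjusted p on either side, and the 2 genes most like each) and tests were chosen with earlier results of these data known. Alternatives were other scans, scaling, dye handling, filters, a robust fit, left-out replicates and the replicate block. On simulated data with 200 changed probes, a log2 change of 4 was recovered for 96% of changed probes on the larger set and 98% on the smaller, and a change of 1 for 46% and 68%. The simulation held no dye effect and far fewer changed probes than passed in the data, so these rates need not hold for the data. Tables and plots were made with Python 3.11.15, numpy 2.4.6, pandas 2.3.3, matplotlib 3.10.9 and R's data.table (version 1.17.8).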

Additional observations from a re-analysis of the deposited data

Results flagged for a closer look

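On the larger slide set, replicate 2 of opr5 probe 4726 (−12.34) lay far below the other 5 slides, with a gap of 0.68 of the whole range. Replicate 5 of pr5 probe 7176 (−3.28) lay far above the other 5, with a gap of 0.66. Both gaps exceed Dixon's 95% critical value for 6 slides. All 8 probes were tested in this way, and at this level chance alone marks about 5% of groups.

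The ratio of SAM over seedling differed between the slide sets for pr5 (−8.60, larger minus smaller) and for opr5 (−3.54) by limma's test of the difference itself. The opr5 difference did not pass without the low scans (−2.98, adjusted p 0.0700). The pr5 difference passed from each scan alone, at −8.60, −9.47 and −7.72 from low to high, and without replicate 5 it was −9.95.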

How the results depend on the processing

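In both sets pr5, prp2 and opr5 kept their side and passed under all 20 alternatives. Of these, the filter on a value in every scan removed no probe and so could not change a result. The limit of at least 2-fold left their values and adjusted p as they were. The values ran from −12.34 to −7.86, −3.53 to −2.52 and −10.95 to −6.90 on the larger set and from −1.81 to −1.19, −3.23 to −2.55 and −6.27 to −4.16 on the smaller. The pr5 difference between the sets passed under all 16 alternatives (−9.95 to −7.72). The opr5 difference did not pass from the high scan alone (−2.74, adjusted p 0.136) or without the low scan (−2.98, adjusted p 0.0700), an alternative added after seeing the data. The prp2 difference changed sign from the low scan alone (0.06, adjusted p 0.874) and, with replicates left out in turn, ran from −0.24 to 0.01 (0.0064 without replicate 5). With the replicate block the paired differences kept their size (−8.60, −3.54 and −0.16 for pr5, opr5 and prp2) and the adjusted p was 0.00160 for pr5, 0.00218 for opr5 and 0.553 for prp2, and 94 genes passed against 103 without it; no call of the 3 genes changed. With a limit of at least 2-fold, the larger set had 3559 seedling-side and 3060 SAM-side probes, against 5678 and 5759, and the smaller 2138 and 1737, against 3749 and 4020. With replicates left out in turn, the larger set had 0 to 1 defence genes on the SAM side (1 without replicate 4). Without the cystatins, also added after seeing the data, 5 defence genes in place of 8 passed on its seedling side. The number of measured genes fell as well, and pr5, prp2 and opr5 are among the 5. The causes were not tested. Channel intensities are not used here, so signal over background is unknown for these probes.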
